A study of Homo sapiens and Mus musculus with 19 samples.

Results

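Lung epithelial lineage genes are described here through 10 members, of 19775 human genes that the arrays name singly. They are the transcription factors NKX2-1, FOXA1 and FOXA2, the surfactant and lamellar body genes SFTPB, NAPSA, SLC34A2 and LAMP3, and the surface genes MUC1, SCNN1A and AQP5. Each gene is represented by its brightest probe set among those annotated to that symbol alone. All 10 had such a probe set in the human table, and 9 of the 10 mouse counterparts had one in the mouse table, where Lamp3 had none. The data are 19 single-colour arrays of retrovirally transduced lung cancer cells. In the IKKb group the retrovirus carried activated IKKβ, with serines 177 and 181 changed to glutamate, in A549, H23, H358, HCC827 and PC9. In the IkB_SR group it carried a super-repressor mutant of IkBα in the same 5 lines, and in the MiG group it was the empty control vector. Each line and vector has 1 array. The mouse line LLC-kB OVA, called LLC here, has 2 arrays with IKKb and 2 with MiG. All cells of every group were sorted on the green fluorescent protein that the vectors share. Human lines grew in RPMI and LLC in DMEM, both with serum. The labels call A549 and LLC lung carcinoma, H358 bronchioalveolar carcinoma, and H23, HCC827 and PC9 lung adenocarcinoma.

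NKX2-1, also called TTF-1, is the transcription factor that marks lung and thyroid epithelium, and with the forkhead factors FOXA1 and FOXA2 it drives surfactant genes in alveolar type 2 cells. Those cells make surfactant, store it in lamellar bodies and take up sodium through the epithelial channel that SCNN1A helps form, whereas AQP5 is the water channel of alveolar type 1 cells. IKKβ phosphorylates IkBα and so frees the transcription factor NF-kB, and the super-repressor form of IkBα resists this and holds NF-kB back.

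The deposited MAS5 signals have the same trimmed mean, 500, on each array, set by the authors, and array medians ran from 51.3 to 76.5 in the human lines. The 40th percentile of an array, used here as the line below which a signal is called dim, lay between 28.7 and 44.98 on the human arrays. Every human array correlated best with another array of its own line, with r of 0.957 or more within lines and at most 0.892 between lines. NFKBIA, which encodes the IkBα that the IkB_SR vector adds, was 1.60 to 7.08 times higher with IkB_SR than with MiG in 4 lines. On the array labelled H23 IkB_SR it was 0.782 times the MiG signal. NF-kB target genes were lower on that array, with RELB at 259 with IkB_SR and 548 with MiG. TNFAIP3 was at 927 with IkB_SR and 2840 with MiG, and 11 targets summed to 7336 with IkB_SR and 12630 with MiG. These targets were chosen with earlier results of these data known, so they are no independent check of the label. The SCNN1A result is also given without that array. IKBKB, which encodes IKKβ, was not raised on the IKKb arrays, at 0.794 to 1.03 times the MiG signal, and whether its probe set reads the vector's transcript is not given in the sources used here. The H358 IKKb array stood apart within its line, with a DapX-3 spike-in signal of 4376, against 1103 with IkB_SR and 1128 with MiG. DapX-3 was 3385 to 3850 in H23, 3678 to 3747 in HCC827 and 2376 to 4354 in PC9, but 154 to 161 in A549. Spike-in level thus differed between lines, and its part in the line contrasts was not tested. The actin 3′ to 5′ ratio of the H358 IKKb array was 1.74, against 1.03 to 1.41 on the other 14 human arrays. The RNA is from bulk cultures, in which fewer expressing cells and less RNA per cell cannot be told apart.

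Among the transcription factors, NKX2-1 by its brightest probe set was above the dim range in H358 and H23. Its signals in H358 were 1045 with IKKb, 2486 with IkB_SR and 2397 with MiG. In H23 they were 262 with IKKb, 461 with IkB_SR and 262 with MiG, below all 3 H358 arrays, and in A549, HCC827 and PC9 they were dim on all 9 arrays, between 3.19 and 31.96. Its other probe set was also above the dim range in H358 and H23, at 104 to 231, and on 1 array each of A549 (54.3 with IKKb) and HCC827 (72.4 with MiG). FOXA1 showed another order, between 340 and 990 in the 4 lines other than H23, whose ranges overlapped between neighbours, and between 32.9 and 85.0 in H23. FOXA2 in H358 had signals of 896 with IKKb, 3158 with IkB_SR and 3261 with MiG. In A549 it had 853 with IKKb, 1020 with IkB_SR and 1102 with MiG, which overlapped the H358 range, and in HCC827 it had 217 with IKKb, 268 with IkB_SR and 231 with MiG. FOXA2 was at most 50.5 in H23 and at most 16.5 in PC9. By these probe sets no line but H358 had signals above the dim range for all 3 factors on every array. The levels of different genes are not compared with each other here, since they come from different probe sets.

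The 5′ flanks of NKX2-1, NAPSA and SFTPB are printed because SFTPB is the textbook target of NKX2-1 and FOXA proteins, and because NKX2-1 and NAPSA were both low on the H358 IKKb array described below. Sequences are from RefSeq on GRCh38.p14, 250 bases before a start site. Capitals mark matches on either strand to CAAG, the core of the NKX2-1 motif, and to TGTTTAC and TGTTTGC, FOXA motifs, and where matches meet they form 1 run of capitals.
NKX2-1 (chr14:36519557-36519806, minus strand): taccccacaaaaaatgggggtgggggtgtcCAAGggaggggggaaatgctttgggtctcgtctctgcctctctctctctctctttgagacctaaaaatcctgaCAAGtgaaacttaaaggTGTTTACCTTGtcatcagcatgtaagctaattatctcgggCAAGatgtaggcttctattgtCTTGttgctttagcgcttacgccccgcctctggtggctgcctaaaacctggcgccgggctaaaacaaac
NAPSA (chr19:50369303-50369552, minus strand): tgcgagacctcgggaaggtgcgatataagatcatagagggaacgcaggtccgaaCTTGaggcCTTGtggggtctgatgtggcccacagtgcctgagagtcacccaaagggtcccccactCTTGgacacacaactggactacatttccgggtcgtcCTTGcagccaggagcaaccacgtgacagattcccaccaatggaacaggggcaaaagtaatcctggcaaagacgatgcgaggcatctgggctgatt
SFTPB (chr2:85668200-85668449, minus strand): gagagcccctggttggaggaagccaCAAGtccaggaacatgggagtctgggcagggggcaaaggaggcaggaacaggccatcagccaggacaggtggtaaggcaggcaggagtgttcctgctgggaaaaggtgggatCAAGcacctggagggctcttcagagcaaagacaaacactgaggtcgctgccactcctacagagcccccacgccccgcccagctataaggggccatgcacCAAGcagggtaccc
Windows of 250 bases before to 50 after the start were searched for 7 of the 10 members, 12 windows in all. FOXA2, LAMP3 and SCNN1A were not in the table. CAAG occurred 6 times in that NKX2-1 window, 7 times in the NAPSA window and 3 times in the SFTPB window, counting the bases after the start that are not printed. The other window of each gene, at another start site, held 1 for NKX2-1, 2 for NAPSA and 1 for SFTPB, and the windows printed are those with more. For comparison, 86% of all 35116 promoters of the same length hold it at least once, with a median of 2. TGTTTAC was found in 1 member window, the NKX2-1 window printed above, and in 3.42% of all promoters. TGTTTGC was found in windows of NKX2-1, FOXA1 and SLC34A2 and in 3.89% of all promoters. The classical NF-kB site and a form of it with its middle bases left free had no match in any of the 12 windows, and 0.191% and 1.61% of all promoters have one. The loosest NF-kB pattern searched, which fixes only the outer bases and takes in both of the others, matched in 9 of the 12 windows, up to 5 times in the NKX2-1 window not printed, and in 58.7% of all promoters; it is not marked in capitals. A match is only a match of letters.

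The surfactant and lamellar body genes ordered the lines in other ways than NKX2-1 did. NAPSA, the aspartic protease napsin A that processes surfactant protein B, had signals in H358 of 113 with IKKb, 331 with IkB_SR and 184 with MiG. The lowest of these overlapped the A549 range of 107 to 163, and HCC827 and PC9 had at most 78.2. LAMP3, a lamellar body membrane protein, split the lines differently, at 118 to 1663 in HCC827, 473 to 617 in H358 and 348 to 596 in PC9. Its signals in H23 and A549 were 33.2 to 66.4, with no overlap with the other 3 lines. SLC34A2, the sodium phosphate cotransporter of type 2 cells, was near the dim range everywhere, between 20.3 and 75.7 on 14 arrays, with 192 on the HCC827 IKKb array.

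SFTPB, which encodes surfactant protein B, had signals between 114 and 315 on all 15 arrays, with the highest in H23 and overlapping ranges between neighbouring lines. Its 4 probe sets did not follow one another. The other 3 correlated with the brightest one at r of -0.16, 0.29 and -0.01 over the 15 arrays, and 2 of them were above the dim range on only 4 and 3 arrays. The SFTPB values are therefore given as values of 1 probe set. For NKX2-1, FOXA1 and MUC1 the other probe sets followed the brightest at r of 0.87 to 0.98, and for FOXA2 at 0.97 and 0.28.

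MUC1 and SCNN1A, among the surface genes, differed widely between lines. MUC1, the transmembrane mucin of glandular epithelium, had signals in HCC827 of 9607 with IKKb, 5618 with IkB_SR and 11793 with MiG. The H23 range of 1473 to 1761, the H358 range of 727 to 1277, the A549 range of 183 to 250 and the PC9 range of 47.4 to 147 followed without overlap. SCNN1A, the alpha subunit of the epithelial sodium channel, was highest by median in H358 (942 to 5134). PC9 (774 to 2049) and HCC827 (481 to 927) followed, with overlapping ranges between neighbours among these lines. In A549 SCNN1A was 162 to 275 and in H23, by this probe set, it was dim, at 12.8 to 42.4. AQP5 was dim on all 15 arrays, between 6.06 and 17.0, and was left out of the tests because it failed the filter on low values.

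**Figure D1:**
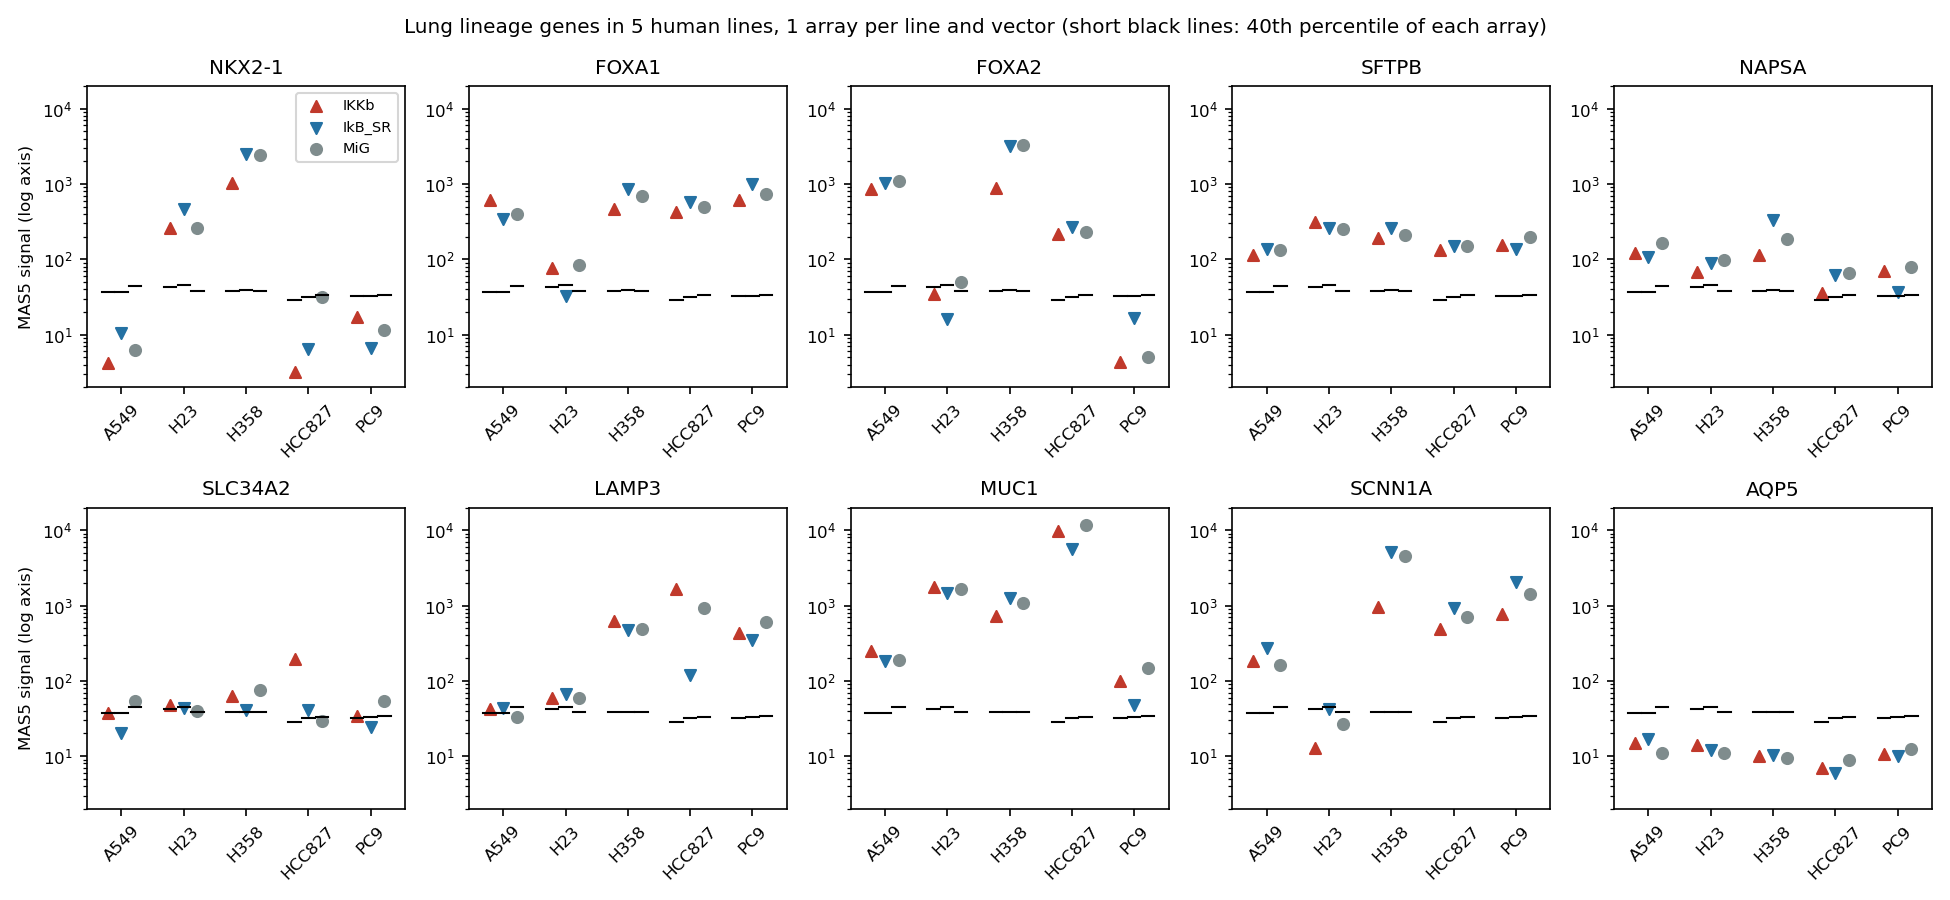
MAS5 signal (log axis) of each of the 10 lung lineage genes on the 15 human arrays, by cell line, with IKKb, IkB_SR and MiG from left to right and the 40th percentile of each array as a short black line. NKX2-1, by its brightest probe set, lies above that line in H23 and H358 only, AQP5 lies below it on every array, and MUC1 runs from 47.4 in PC9 to 11793 in HCC827.

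Each line was set against the mean of the other 4 with limma, over 15212 genes and with vector in the model, and 9 members entered. The 3 arrays of a line carry different vectors and stand in for replicates. These tests therefore measure the spread of the arrays of a line after the shared vector effect, not the spread between independent cultures. H358 was higher for 6 of 9 members and lower for none, against 30.5% of all genes higher, 25.8% lower and 56.3% called in either direction. NKX2-1 was at least 22.96-fold higher there (log2 5.24 ± 0.28 on the measured values, SE, limma adjusted p = 1.91e-09), since 9 of the 12 arrays of the other lines were dim. FOXA2 was at least 12.7-fold, SCNN1A at least 8.58-fold, LAMP3 at least 2.85-fold, FOXA1 at least 1.90-fold and NAPSA 2.23-fold higher. The median of the 9 members was log2 1.16 in H358, beside 0.05 for all genes.

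In the other lines the members moved both ways. In H23, 7 of 9 were called, against 60.6% of all genes (33.2% higher and 27.4% lower). NKX2-1 was at least 2.68-fold higher there, MUC1 2.43-fold and SFTPB, by its brightest probe set, 1.64-fold. Another SFTPB probe set, above the dim range on all 15 arrays, had overlapping ranges in H23 (90.8 to 147) and A549 (89.5 to 145). In H358 that other probe set had 141 to 172. FOXA1 in H23 was at least 7.13-fold lower, FOXA2 at least 5.45-fold, LAMP3 3.90-fold and SCNN1A at least 15.01-fold lower. PC9 also had 7 of 9 called, against 54.7% of all genes (25.7% higher and 29% lower), with SCNN1A at least 3.35-fold, LAMP3 at least 2.37-fold and FOXA1 at least 2.32-fold higher, MUC1 12.6-fold, NAPSA 1.58-fold, FOXA2 at least 8.16-fold and NKX2-1 at least 2.87-fold lower. In A549, 6 of 9 were called, against 61.3% of all genes (30.2% higher and 31.2% lower). FOXA2 was at least 4.99-fold higher there, and NKX2-1 (at least 2.64-fold), LAMP3, MUC1, SCNN1A and SFTPB (by its brightest probe set) were lower. In HCC827, 5 of 9 were called, against 57.3% of all genes (26.7% higher and 30.6% lower), with MUC1 19.4-fold, LAMP3 at least 3.24-fold and SCNN1A at least 1.496-fold higher, NAPSA 1.79-fold and NKX2-1 at least 2.98-fold lower. "At least" marks a lower group with dim arrays, each set to its 40th percentile. Without the MiG arrays H358 had 3 members called, PC9 4 and HCC827 2, and without the IKKb or the IkB_SR arrays the HCC827 count was 3. The shares of members called are near those of all genes, so the counts by themselves say nothing particular to lineage genes.

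Other lineage genes were measured alongside. General epithelial genes, such as the adhesion molecule EPCAM, were above the dim range on every array for 11 of 11 genes in H358, HCC827 and PC9, but for 6 in A549 and 5 in H23. EPCAM ranged from 13777 to 16352 in H358, 13941 to 15563 in HCC827 and 16232 to 19732 in PC9, against 344 to 449 in A549 and 247 to 449 in H23. Of 10 other alveolar type 2 genes, 5 to 7 were above the dim range in each line, and 7 entered the line contrasts. In H358 1 of the 7 was higher and 4 were lower, against 30.5% and 25.8% of all genes. Their median there was log2 -0.69, so they did not follow the members. In A549 3 were higher and 1 was lower, against 30.2% and 31.2% of all genes, with a median of log2 0.93. SFTPD, which encodes surfactant protein D, was dim on all 15 arrays. ABCA3, the lipid transporter of lamellar bodies, was highest in A549 at 576 to 669 and was 41.6 to 90.4 in H358. The airway secretory marker SCGB1A1 was dim in A549, H23 and H358 and above the dim range on 1 array each of HCC827 and PC9. It does not stand for its list of 12 airway secretory genes, of which 8 entered the line contrasts. In A549 5 of the 8 were higher and 1 was lower, against 30.2% and 31.2% of all genes. In H358 3 were higher and 2 lower, against 30.5% and 25.8% of all genes.

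Some lines held genes of other lineages. FGB, a fibrinogen chain made by liver, was 2166 to 3719 in A549 and at most 51.8 in the other lines. KRT5, a basal cell keratin, was 1005 to 1384 in PC9 and at most 156 in the other lines. The basal and squamous list did not single out PC9. Of its 4 genes tested, 2 were higher and 2 lower in PC9, against 25.7% and 29% of all genes. In H358 3 were higher and 1 lower, against 30.5% and 25.8%. The summed signal of the 7 genes measured was 2123 to 3645 in PC9, 6931 to 19272 in H358 and 9245 to 15018 in HCC827. SOX2, a factor of basal and airway cells, was 2516 to 4509 in H358, above the A549 range of 625.4 to 1702. Most probe sets lie above the 40th percentile by construction, so counts of genes above it are alone no mark of identity.

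**Figure D2:**
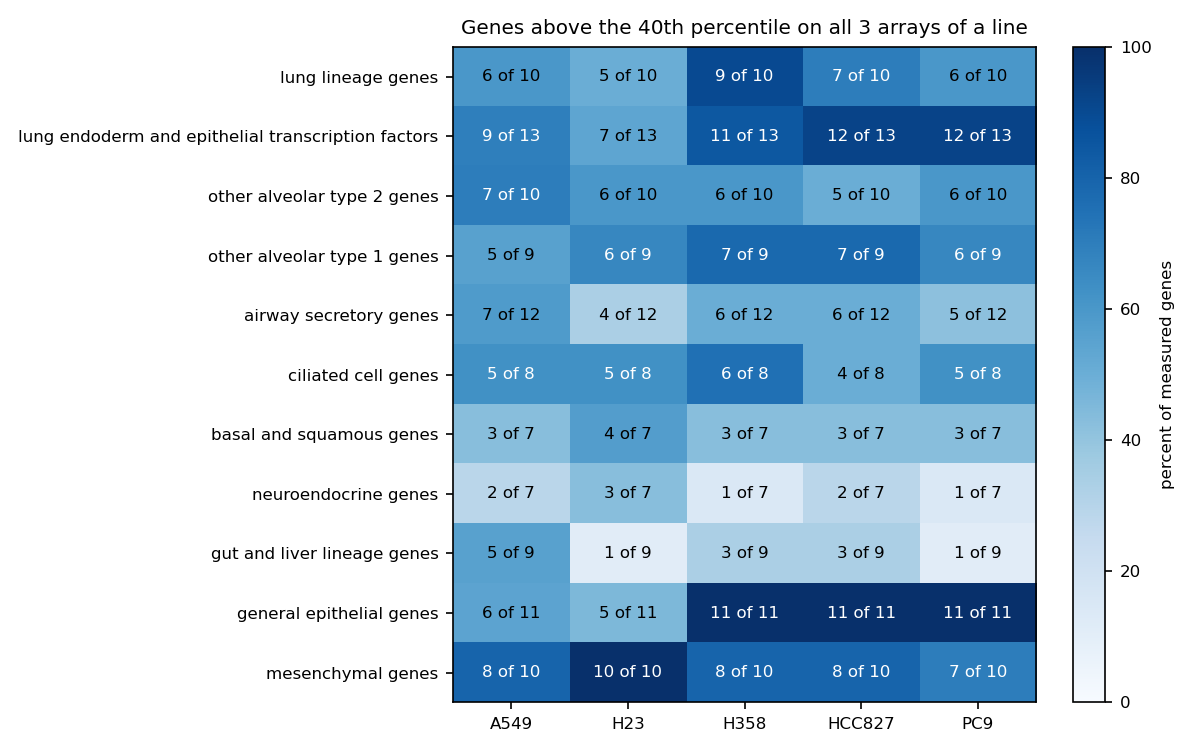
Number of genes of each list that lay above the 40th percentile on all 3 arrays of a line, of those measured, with lists down the page, lines across and colour for the percent of measured genes. The 10 lung lineage genes reach 9 in H358, 7 in HCC827, 6 in A549 and PC9 and 5 in H23, and general epithelial genes reach 11 of 11 in H358, HCC827 and PC9.

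The vector comparison asks whether NF-kB activity moved these genes within lines. SCNN1A was the member that passed the threshold, lower with IKKb than with IkB_SR in all 5 lines. In H358 it had 942 with IKKb, 5134 with IkB_SR and 4522 with MiG, and in PC9 774 with IKKb, 2049 with IkB_SR and 1422 with MiG. In HCC827 it had 481 with IKKb, 927 with IkB_SR and 707 with MiG, and in A549 182 with IKKb, 275 with IkB_SR and 162 with MiG. In H23 all 3 signals were dim, at 12.8 with IKKb, 42.4 with IkB_SR and 26.4 with MiG, so the direction there rests on dim values. Another SCNN1A probe set was above the dim range in H23 on 2 arrays, at 52.9 with IKKb and 72.4 with IkB_SR. It was dim with MiG, at 34.7, so by that probe set IKKb was not the lowest in H23. That probe set was lower with IKKb than with IkB_SR in 3 of 5 lines. The third probe set, dim on every array, was higher with IKKb than with IkB_SR in H23. By the brightest probe set, the IKKb array was the lowest of the 3 in every line but A549, where it lay between the other 2. By the same probe set the IkB_SR array was the highest in every line.

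With the line as a block in limma, SCNN1A fell 2.40-fold with IKKb relative to IkB_SR (log2 -1.26 ± 0.24, SE, 95% interval -1.78 to -0.75, adjusted p = 0.0298). It was 1 of 9 members called, against 0.933% of all 15212 genes called, 0.611% higher and 0.322% lower. It was lower in 5 of 5 lines, as 5.73% of all genes were. SCNN1A was already known to differ here, and in this direction, when the members were chosen. Its call and the permutation value that follows are therefore descriptions, not independent evidence. Flipping the signs of the 5 within-line differences in every way, a two-sided exact permutation test, put SCNN1A at p = 0.0625, and 5 lines can give no smaller value. Against MiG, SCNN1A with IKKb was 1.75-fold lower (log2 -0.81 ± 0.24, limma adjusted p = 0.878, lower in 4 of 5 lines, as 23.6% of all genes were in at least 4). With IkB_SR it was 1.37-fold higher (log2 0.45 ± 0.24, limma adjusted p = 0.995, higher in 5 of 5 lines, as were 4.04% of all genes). Neither passed the threshold, and the comparisons share arrays.

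The SCNN1A call came from its brightest probe set and was lost without some arrays. Its other 2 probe sets were dim on most arrays (5.35 to 72.4), were lower with IKKb than with IkB_SR in 3 of 5 lines and had r of -0.30 and 0.45 with the brightest. The mean of all 3 gave log2 -0.59 (limma adjusted p = 0.190). Without the H358 IKKb array the log2 difference was -0.94 (limma adjusted p = 0.00937), and without the array labelled H23 IkB_SR it was -1.29 (limma adjusted p = 0.0639). Leaving out H23, HCC827 or PC9 gave -1.32, -1.35 and -1.23 with limma adjusted p of 0.0857, 0.105 and 0.153.

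Of the 10 other alveolar type 2 genes measured, 7 entered the test, and CTSH and LPCAT1 fell with IKKb relative to IkB_SR while none rose. Of all genes 0.322% were called lower and 0.611% higher. The list was chosen with earlier results of these data known, so these calls are a description. CTSH, cathepsin H, a lysosomal protease that takes part in surfactant protein B processing, had in HCC827 signals of 3276 with IKKb, 8399 with IkB_SR and 6529 with MiG. In H358 it had 391 with IKKb, 831 with IkB_SR and 353 with MiG, and in PC9 2947 with IKKb, 4147 with IkB_SR and 3205 with MiG. In H23 it had 830 with IKKb, 1424 with IkB_SR and 1205 with MiG, and in A549 603 with IKKb, 847 with IkB_SR and 799 with MiG. The IkB_SR array was highest in all 5 lines, and the IKKb array lowest in 4, the exception being H358. The fall was 1.78-fold (log2 -0.83 ± 0.15, limma adjusted p = 0.0263). Against MiG, CTSH had log2 -0.38 ± 0.15 with IKKb (limma adjusted p = 0.878) and 0.45 ± 0.15 with IkB_SR (limma adjusted p = 0.995). Neither passed the threshold. The call between IKKb and IkB_SR was lost under 6 of 18 alternatives, among them leaving out H23, HCC827 or PC9 (limma adjusted p = 0.086, 0.123 and 0.0798).

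LPCAT1, the acyltransferase that makes the main surfactant phospholipid, had in PC9 signals of 5098 with IKKb, 9026 with IkB_SR and 5208 with MiG. In H358 it had 3211 with IKKb, 7835 with IkB_SR and 5420 with MiG, and in HCC827 4371 with IKKb, 5914 with IkB_SR and 5125 with MiG. In A549 it had 3477 with IKKb, 4386 with IkB_SR and 4030 with MiG, and in H23 838 with IKKb, 997 with IkB_SR and 856 with MiG. The order was the same in all 5 lines, with IkB_SR highest and IKKb lowest; in H23 and PC9 the IKKb and MiG signals lay close together. The fall was 1.54-fold (log2 -0.62 ± 0.13, limma adjusted p = 0.0369). Against MiG, LPCAT1 had log2 -0.25 ± 0.13 with IKKb (limma adjusted p = 0.878) and 0.37 ± 0.13 with IkB_SR (limma adjusted p = 0.995). Neither passed the threshold. The call between IKKb and IkB_SR was lost under 12 of 18 alternatives, among them median centring (log2 -0.58, limma adjusted p = 0.0607) and leaving out any 1 line (limma adjusted p = 0.0567 to 0.16). The median of the 7 type 2 genes was log2 0.02, beside -0.01 for all genes.

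**Figure D3:**
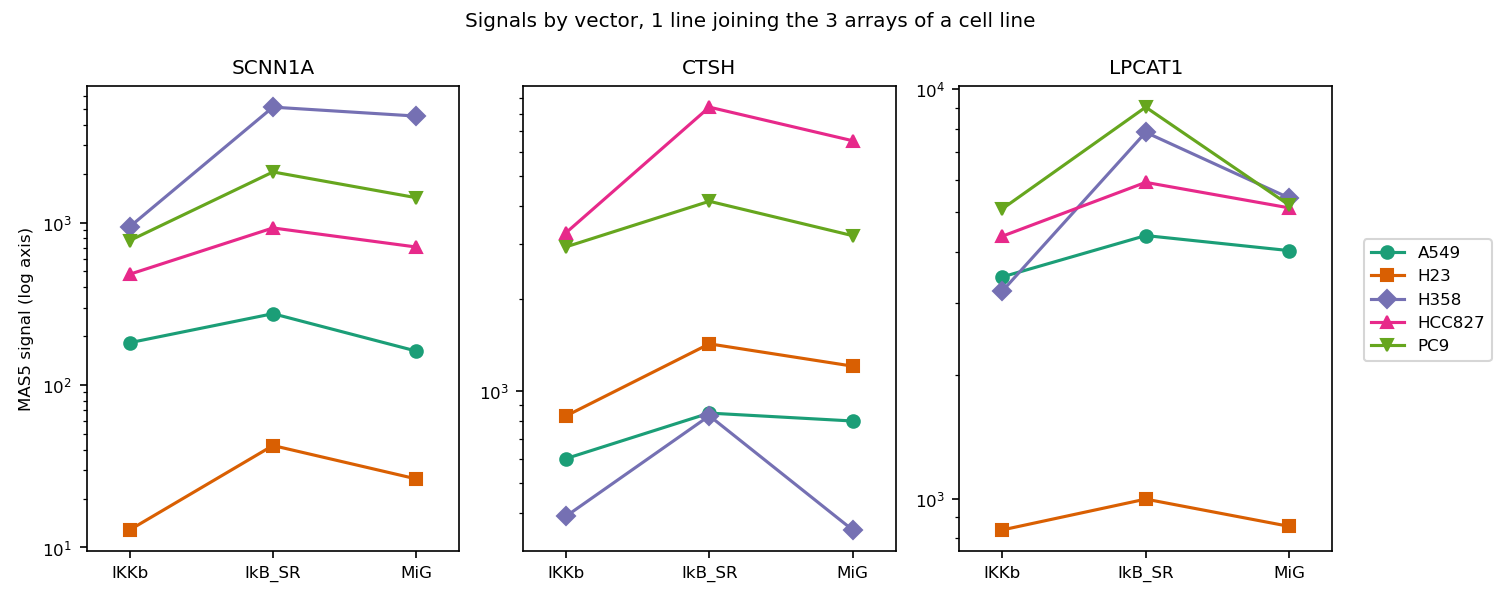
MAS5 signal (log axis) of SCNN1A, CTSH and LPCAT1 with IKKb, IkB_SR and MiG, with a line joining the 3 arrays of each of the 5 cell lines. IkB_SR gives the highest point of every line in all 3 panels, and SCNN1A with IKKb is lowest in every line but A549.

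The genes that work with SCNN1A did not pass in this comparison. Of 13 measured sodium channel and ion transport genes, 10 entered the test and none was called by limma. Their median was log2 0.09, beside -0.01 for all genes. SGK1, also on this list, had log2 0.14 ± 0.27 (limma adjusted p = 0.869, higher in 2 lines and lower in 3). NEDD4L, the ubiquitin ligase that removes the channel from the membrane, had log2 0.49 ± 0.14 (limma adjusted p = 0.129, higher in 4 of 5 lines). PRSS8, the channel-activating protease prostasin, had -0.54 ± 0.23 (limma adjusted p = 0.309), and ST14, the protease matriptase, -0.26 ± 0.11 (limma adjusted p = 0.310, lower in 5 of 5 lines). The beta subunit SCNN1B was above the dim range on every array of PC9 only, at 114 to 225, and averaged log2 -0.0041 ± 0.39 between IKKb and IkB_SR (limma adjusted p = 0.998). The gamma subunit SCNN1G was above the dim range on 1 array of H23 and 2 of PC9.

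NF-kB target genes went the other way over the same arrays. Their list was chosen with earlier results of these data known, so it is no independent check of the vectors. Of 11 measured, 9 rose with IKKb relative to IkB_SR and none fell, against 0.611% of all genes higher and 0.322% lower. RELB had log2 2.16 ± 0.23 and TNFAIP3 3.39 ± 0.41 (limma adjusted p = 0.00079 and 0.00143). ITGAM, a myeloid integrin, also rose, by log2 1.72 ± 0.34 (limma adjusted p = 0.0327), 1 of 4 leukocyte markers tested. The summed signal of the 8 leukocyte markers was 227 to 924 with IKKb, 184 to 497 with IkB_SR and 254 to 693 with MiG, and its part in the SCNN1A difference was not tested.

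The 8 other members that entered were not called by limma between IKKb and IkB_SR, and SCNN1A was the only one with an unadjusted p below 0.05, as 14.2% of all genes had. The median of the 9 members was log2 -0.07, beside -0.01 for all genes. For the transcription factors the differences were -0.42 ± 0.28 for NKX2-1, -0.04 ± 0.24 for FOXA1 and -0.47 ± 0.28 for FOXA2, with 95% intervals of -1.01 to 0.17, -0.55 to 0.46 and -1.07 to 0.13. The interval of SFTPB, around -0.07 ± 0.15, was -0.39 to 0.24, the narrowest of the 9. NAPSA had -0.29 ± 0.25 and MUC1 0.30 ± 0.22. SLC34A2, at 0.67 ± 0.33 (limma adjusted p = 0.379), was higher with IKKb in 5 of 5 lines, as were 4.51% of all genes, but several of its signals were dim.

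Against MiG no member and no gene at all was called by limma for IKKb, at 0% of all genes, and 1 member, SCNN1A, and 839 genes (5.52%) had an unadjusted p below 0.05. FOXA2 and NAPSA were lower with IKKb than with MiG in 5 of 5 lines, as 4.83% of all genes were. For FOXA2 both signals were dim in PC9 (4.28 with IKKb and 4.99 with MiG), and in H23 the IKKb signal was dim. Their differences were log2 -0.55 ± 0.28 for FOXA2 (limma adjusted p = 0.878) and -0.44 ± 0.25 for NAPSA (limma adjusted p = 0.887). For IkB_SR against MiG limma likewise called no member and no gene, at 0% of all genes, with 1 member, MUC1, and 675 genes (4.44%) at an unadjusted p below 0.05. MUC1 had log2 -0.48 ± 0.22 there (limma adjusted p = 0.995), lower with IkB_SR in 4 of 5 lines, as 19.7% of all genes were in at least 4.

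**Figure D4:**
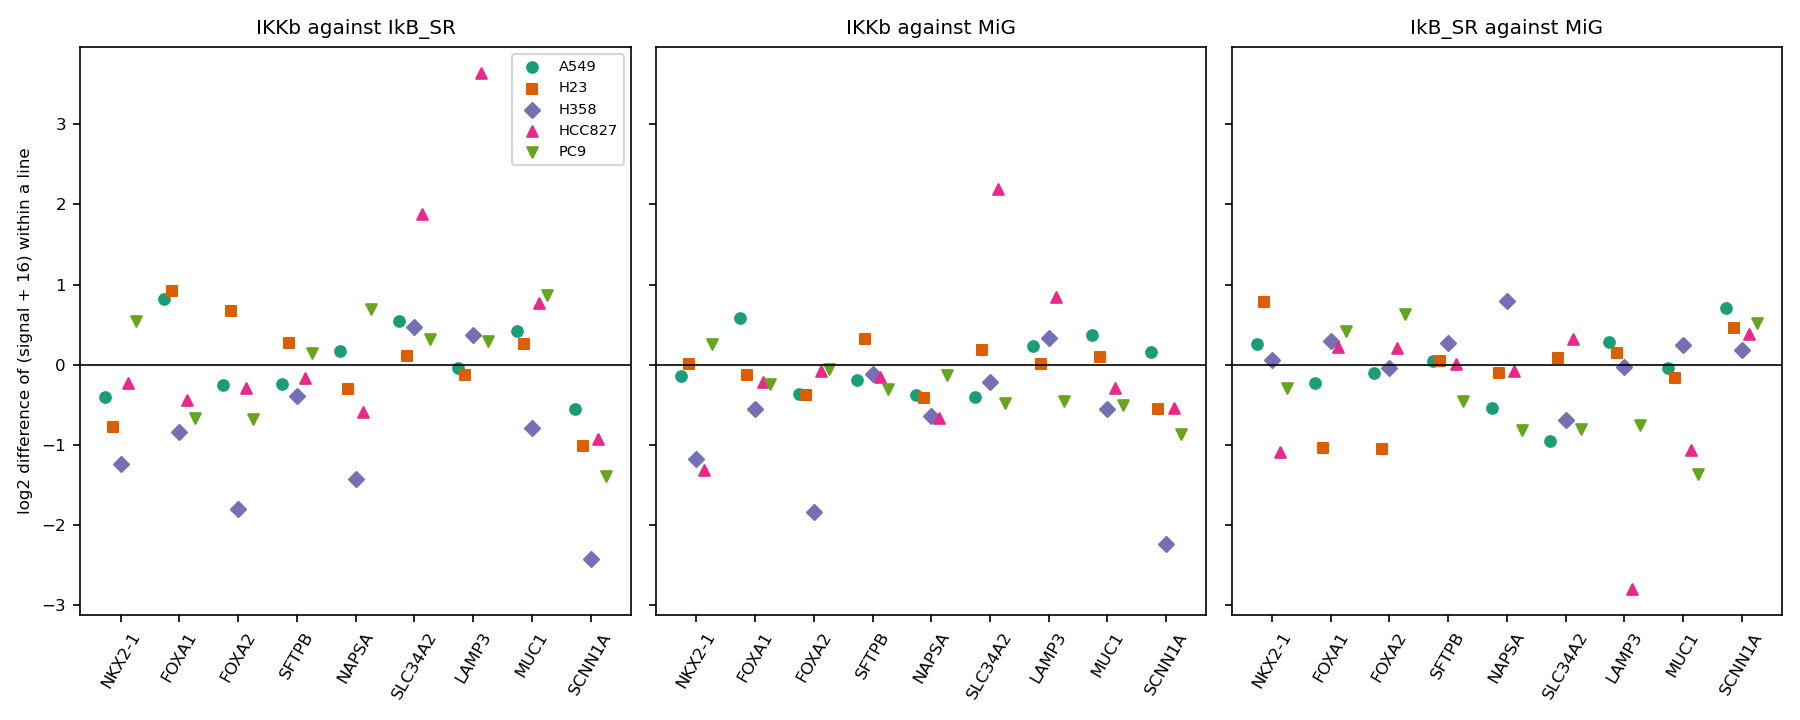
Difference in log2(signal + 16) within each of the 5 lines for the 9 members that entered the tests, for IKKb against IkB_SR, IKKb against MiG and IkB_SR against MiG. All 5 SCNN1A points lie below 0 in the IKKb against IkB_SR panel, H358 gives the lowest points of FOXA2 and SCNN1A in both IKKb panels, and LAMP3 and SLC34A2 in HCC827 lie above the other lines in the IKKb against IkB_SR panel.

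H358, where 9 of the 10 members were above the dim range on all 3 arrays, had the most members low on its IKKb array. On its IKKb array 4 of 9 members, NKX2-1, FOXA2, NAPSA and SCNN1A, lay below both other H358 arrays by more than 1.5-fold, as did 8.61% of all genes. The same count was 1 in HCC827 (NAPSA, 4.96% of all genes), 1 in PC9 (SCNN1A, 3.68%), 0 in A549 (2.52%) and 0 in H23 (2.6%). The difference between IKKb and IkB_SR in H358 was log2 -2.43 for SCNN1A, -1.80 for FOXA2, -1.43 for NAPSA and -1.24 for NKX2-1. FOXA1 and MUC1 lay below both other arrays by smaller steps, at 467 and 727 with IKKb, against 851 and 1277 with IkB_SR and 693 and 1079 with MiG. LAMP3 went the other way, at 617 with IKKb, against 473 with IkB_SR and 485 with MiG. With 1 array per line and vector there is no replicate within H358.

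Mesenchymal genes moved with this array. VIM, the intermediate filament vimentin, had 13889 with IKKb, against 5252 with IkB_SR and 6321 with MiG. ZEB1, a repressor of epithelial genes, had 616 with IKKb, against 126 with IkB_SR and 140 with MiG. The median difference over all 10 mesenchymal genes in H358 was log2 1.34 between IKKb and IkB_SR, and -0.17 to 0.60 in the other lines, beside 0.01 for all genes in H358. The summed signal of these 10 genes was 28731 with IKKb, 13081 with IkB_SR and 15320 with MiG, and 8 of the 10 were above the dim range on all 3 arrays.

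Epithelial genes on that array were not uniformly lower. ELF3, an epithelial transcription factor, had 547 with IKKb, against 2445 with IkB_SR and 1349 with MiG. CDH1, the epithelial cadherin, had 13819 with IKKb, against 11840 with IkB_SR and 11753 with MiG. EPCAM had 16352 with IKKb, against 13781 with IkB_SR and 13777 with MiG. The 11 general epithelial genes had a median difference of log2 -0.34 between IKKb and IkB_SR. The array's own spike-in signal and actin ratio, given above, also differed from those of the other H358 arrays. The part of these and of the mesenchymal genes in the lineage gene differences was not tested.

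**Figure D5:**
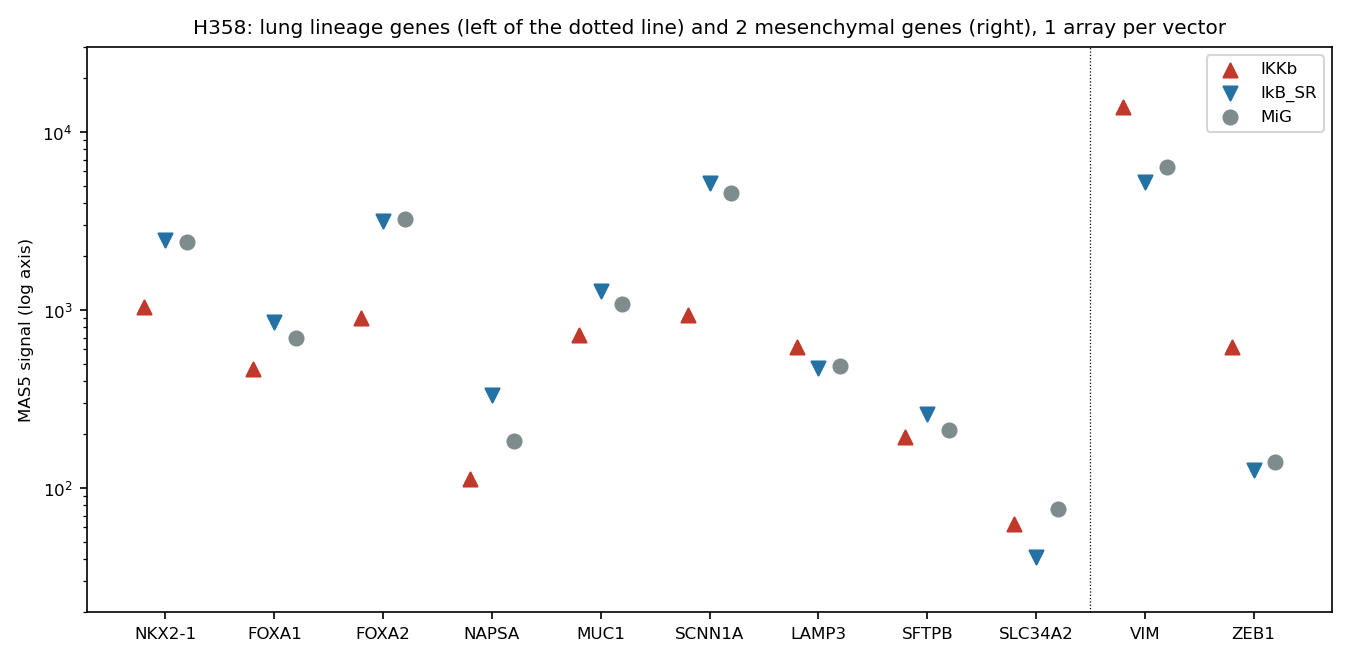
MAS5 signal (log axis) on the 3 H358 arrays, IKKb, IkB_SR and MiG from left to right, for the 9 lung lineage genes above the filter and, right of the dotted line, VIM and ZEB1. With IKKb the signals of NKX2-1, FOXA1, FOXA2, NAPSA, MUC1, SCNN1A and SFTPB are the lowest of the 3 and those of LAMP3, VIM and ZEB1 the highest.

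HCC827 stood apart for LAMP3 and SLC34A2. LAMP3 had 1663 with IKKb, 118 with IkB_SR and 922 with MiG in HCC827, a difference of log2 3.64 between IKKb and IkB_SR, where the other lines had -0.14 to 0.37. SLC34A2 had 192 with IKKb, 40.6 with IkB_SR and 29.5 with MiG, a difference of 1.88 where the other lines had 0.11 to 0.55. Over the 5 lines LAMP3 averaged log2 0.83 ± 0.42 (limma adjusted p = 0.402), so neither gene passed as a shared response.

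Genes whose pattern lay closest to 3 members were listed by Pearson's r over the 15 arrays, as a description, since arrays of a line share their cells. For NKX2-1 they were CFAP251 (r = 0.98), ASH1L-AS1 (0.97) and CLDN10, PTPDC1 and KDM3A (0.96 each). For the SFTPB probe set they were APOBEC3G (0.96), KLHL36 (0.94), TRPC4 (0.93), CDC14A (0.93) and PLAAT1 (0.92). Within lines, with each line's mean removed, SCNN1A lay closest to RNPEP (0.97), ALDH3A2 (0.96), ALDH7A1 (0.96), TRERF1 (0.96) and MAGEF1 (0.95), and opposite to NECAP2 (-0.96), COL16A1 (-0.96), UBE2Z (-0.96), ATOX1 (-0.95) and DEGS1 (-0.95). Without the 3 H358 arrays the r of these 10 with SCNN1A lay between 0.907 and 0.913 for the first 5 and between -0.926 and -0.861 for the other 5.

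Among the members themselves, FOXA1 and SCNN1A had the highest r over the 15 arrays, 0.87, and both were lowest in H23. NKX2-1 had r of 0.78 with the SFTPB probe set and 0.62 with NAPSA, and -0.24 with FOXA1. Within lines the highest r was 0.71, between FOXA2 and SCNN1A, and the H358 IKKb array was low for both.

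LLC carried few of these genes, with 3 of 9 above the dim range on all 4 arrays. Foxa2 was bright on all 4 arrays, at 1013 and 889 with IKKb and 1029 and 911 with MiG. Sftpb had 107 and 160 with IKKb and 158 and 88.7 with MiG, and Slc34a2 had 30.8 and 115 with IKKb and 65.8 and 145 with MiG. Foxa1 had 52.8 and 27.1 with IKKb and 48.2 and 46.1 with MiG. Nkx2-1, Napsa, Muc1 and Aqp5 were dim on all 4 arrays, at no more than 32.5. Scnn1a had 40.7 and 52.6 with IKKb and 6.02 and 65.4 with MiG, so the groups overlapped.

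Of the 9 mouse counterparts measured, 5 passed the filter and none was called by limma between IKKb and MiG in LLC, nor did any have an unadjusted p below 0.05. Of all 12549 mouse genes 0% were called and 238 (1.9%) had an unadjusted p below 0.05. Scnn1a had log2 0.56 ± 0.65 with a 95% interval of -0.99 to 2.11, which holds both the human difference from MiG and its reverse. Foxa2 had -0.03 ± 0.19 with an interval of -0.48 to 0.42. Only 2 arrays per vector stand behind these values. The labels do not say whether arrays came from separate cultures, so p-values measure only the spread between these samples.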

How the data were processed

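The authors deposited intensity values per probe set on a linear scale, computed with GCOS 1.4 and MAS5 per the submitters' processing notes and scaled to a trimmed mean of 500, which was checked on the files. Per the labels' protocols, cRNA was made from 100 ng of total RNA. Scaling to a common mean removes differences in total RNA, and MAS5 signals near background are noisy; the number of arrays limits precision.

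Probe sets naming 1 gene were used, each gene by the one with the highest mean log2 signal. The scale was log2(value + 16). Genes above the 40th percentile of the array on at least 5 human or 2 mouse arrays were kept, 15212 and 12549. Human fits took all 15 arrays with line and vector as terms, and the LLC fit took 4 arrays without a block (limma 3.58.1, eBayes with trend, R 4.3.3, two-sided, Benjamini-Hochberg over all genes kept, threshold 0.05). The fit was tested on simulated data. Folds are on the log2(value + 16) scale and understate changes of low genes; "at least" folds set dim arrays of the lower group to their 40th percentile, which for groups only partly dim was chosen after seeing the data. Human replicate numbers stand for the lines, so the line block is the replicate block. LLC replicate numbers come from the labels, which do not say what they mark, and the fit with them as a block was run as an alternative.

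Named were all members, the context genes fixed by name in the rule, up to 4 members past the threshold of each context list, and the 5 genes most alike by Pearson's r. Alternatives covered the pseudocount, normalisation, filter, probe set choice, prior, block, arrays fitted and left-out arrays. Leaving out the array labelled H23 IkB_SR was chosen after seeing the data. The members and lists were chosen with earlier results of these data known. Sequences and motif shares came from RefSeq tables. Figures used matplotlib 3.10.9 in Python 3.11.15.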

Additional observations from a re-analysis of the deposited data

Results flagged for a closer look

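In 27 sets of 5 within-line differences, 4 held 1 line whose gap to the nearest other line was over 0.71 of the whole range, Dixon's limit for 5 values, which chance passes in about 1 of 20 sets. FOXA2 in H358 lay at log2 -1.85 between IKKb and MiG, where the other lines had -0.39 to -0.05. LAMP3 in HCC827 lay at 3.64 between IKKb and IkB_SR, where the others had -0.14 to 0.37. SLC34A2 in HCC827 lay at 1.88 between IKKb and IkB_SR (others 0.11 to 0.55) and at 2.19 between IKKb and MiG (others -0.48 to 0.19), and both of these use the same IKKb array. Each rests on single arrays and no cause was tested.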

How the results depend on the processing

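Between IKKb and IkB_SR, SCNN1A kept its direction under all 18 alternatives and its call under 9. It lost the call with a pseudocount of 64 (log2 -1.10, limma adjusted p = 0.0573), the mean of the probe sets (-0.59, 0.190), no prior trend (-1.26, 0.111), no replicate block (-1.26, 0.99996), arrays of the compared vectors only (-1.26, 0.178), and without the array labelled H23 IkB_SR (-1.29, 0.0639). Without 1 line or array it ran from -1.44 to -0.94 (adjusted p 0.00937 to 0.153), at -1.32 without H23, -1.35 without HCC827 and -1.23 without PC9 as lost calls. The count of members called was 0 under each of these and from 0 to 1 without 1 line or array, at 0 without H23, HCC827 or PC9. CTSH kept its call under 12 of 18 alternatives and LPCAT1 under 6, and neither reversed. The count over all genes, 142, was 86 without the filter, 45 with the mean of the probe sets, 21 without the trend, 0 without the replicate block, 15 with the compared vectors only, 69 without the array labelled H23 IkB_SR, and 24 to 130 without 1 line or array, with 66 without H23, 31 without HCC827 and 24 without PC9. Against MiG, 1 gene was called for IKKb with the mean of the probe sets, and 0 to 8 for IkB_SR without 1 line or array, 8 without H358. Members called in the line contrasts ran from 4 to 6 in A549, 6 to 7 in H23, 3 to 7 in H358, 2 to 6 in HCC827 and 4 to 7 in PC9 with arrays left out, the lowest without the MiG arrays. In LLC the replicate block took the count over all genes to 223 with no member among them. Same-numbered arrays had a correlation of deviations of 0.53 and shared a spike-in level, DapX-3 being 1567 with IKKb and 1679 with MiG for number 1, and 19.4 with IKKb and 28.7 with MiG for number 2. The labels do not say what the number marks, and number and batch cannot be told apart. A pseudocount of 64 gave 2 genes, and leaving out 1 array 3 to 140. Median centring moved the median of all genes by -0.13 in A549, -0.14 in H23, 0.20 in HCC827 and 0.12 in PC9. The causes of these losses were not tested.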
